A study of Mus musculus with 20 samples.

Results

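Heme synthesis was examined in mouse heart through 7 enzymes of the housekeeping pathway, Alas1, Alad, Uros, Urod, Cpox, Ppox and Fech, named here in pathway order. They were taken by gene name from a table of 23420 genes, all 7 were present, and all 7 passed the filter on low counts. RNA-seq had been performed on whole hearts of 20 wild-type male C57BL/6 mice (C57BL/6J in the study's methods) aged 9 weeks. The 10 control mice received a control diet, and the other 10 received an iron-deficient diet for the 6 weeks before sampling, from 3 weeks of age, and are called IDA mice (iron-deficiency anemia). The labels disagree on the iron in the deficient diet, giving it as below 2 ppm in 1 field and above 2 ppm in another. Each mouse contributed 1 library of polyadenylated RNA, so the values describe the mixture of cells in a heart. In such bulk RNA, fewer cells of a type and less RNA per cell cannot be told apart.

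Heme is the iron-containing ring carried by hemoglobin, myoglobin and the cytochromes, and the heart, dense in mitochondria, uses it mainly for respiration and oxygen storage. Its synthesis starts in the mitochondrion, where ALAS1 joins glycine and succinyl-CoA in the rate-limiting step, passes through the cytosol (ALAD, UROS, UROD) and returns to the mitochondrion (CPOX, PPOX), where FECH inserts the iron. Red cell precursors use a separate first enzyme, ALAS2, whose translation is controlled by iron, whereas Alas1 is restrained by heme itself and activated by NRF1, PGC-1α and the circadian clock.

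Promoter sequence is given for the enzymes whose levels moved together across mice (Alas1, Alad, Uros and Urod). RefSeq promoter windows (GRCm38.p6, 250 bases before to 50 bases after an annotated start) were available for 6 of the 7 enzymes and searched on both strands for the NRF1 palindrome GCGCATGCGC and for the E-box CACGTG, which share no overlapping match in these windows. Both motifs were chosen after the values were known, and a match is a description of the letters only. The NRF1 palindrome was found in the promoter of Alas1 alone among the 6, and in 0.971% of all 32851 windows. The Alas1 window at the start site that the count table also uses (chr9:106247905-106248204, minus strand, 5′ to 3′) has the palindrome in capitals, beginning at base 30 of the transcript:
Alas1: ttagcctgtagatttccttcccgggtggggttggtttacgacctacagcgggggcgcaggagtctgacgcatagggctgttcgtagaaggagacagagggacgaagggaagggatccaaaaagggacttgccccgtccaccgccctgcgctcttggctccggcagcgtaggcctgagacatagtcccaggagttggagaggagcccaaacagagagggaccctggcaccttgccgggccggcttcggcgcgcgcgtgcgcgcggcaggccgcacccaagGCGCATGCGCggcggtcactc

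The E-box was found in windows of Alad, Urod and Uros, the 3 cytosolic enzymes, and in 7.15% of all windows. No match was found in the windows of Cpox and Ppox, which says only that these letters are not there. Alad has a further match 28 bases before its other annotated start (chr4:62519912-62519957). At the start sites that lie farthest upstream, the matches lay 105, 49 and 250 bases before those of Alad (chr4:62520143-62520188), Urod (chr4:116994437-116994482) and Uros (chr7:133709520-133709545), all on the minus strand, and are shown in capitals with the bases around them:
Alad: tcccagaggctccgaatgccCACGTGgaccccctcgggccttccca
Urod: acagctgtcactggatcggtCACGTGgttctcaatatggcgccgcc
Uros: CACGTGtgctttctcacctcgtccac

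Of the 7 enzymes, 5 were higher in IDA hearts (Alas1, Alad, Uros, Urod and Ppox), 1 was lower (Cpox), and Fech did not pass the test. The genes for the oxidases that follow each other in the pathway, Cpox and Ppox, differed in opposite directions. The test was the quasi-likelihood test of edgeR over 13590 genes, and a gene is called higher or lower at a Benjamini-Hochberg adjusted p below 0.05. A large share of the transcriptome differed between the groups by this test. Of all tested genes, 35.0% were called higher and 32.5% lower, and the counts of enzymes are read against those shares. Under the p threshold given in the study's results (p below 0.01 in both edgeR and DESeq2), the count was again 5 higher and 1 lower. Of all genes, 30.6% were higher and 29.2% lower under it (4158 and 3973 genes). The study, which left out 1 mouse of each group, reported far fewer genes, most of them lower. The calls here are therefore not those of the study. The median log2 fold change was 0.17 over the 7 enzymes and 0.023 over all tested genes. Levels of a gene in each mouse are given as CPM, read pairs per 1000000 of the TMM-scaled library.

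Alas1 (chr9:106233455-106247954, minus strand, mm10, 11 exon intervals), which encodes the rate-limiting first enzyme, ranged from 256.2 CPM through a median of 283 to 302 in control mice. In IDA mice it ranged from 293 through 329 to 354 CPM. The control mean was exceeded in all 10 IDA mice, and the highest control mouse in 9 of them. The means were 282 ± 14.7 and 327 ± 20.7 CPM (SD, n = 10 each), a rise of 16.1% (log2 fold change 0.22 ± 0.04 SE, edgeR adjusted p = 5.42e-05).

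Alad (chr4:62505984-62520063, minus strand, 12 exon intervals) encodes the zinc enzyme that condenses aminolevulinate into porphobilinogen. It ranged from 95.5 through a median of 106 to 123 CPM in control mice and from 99.0 through 123 to 133 CPM in IDA mice. The groups overlapped, with 9 IDA mice above the control mean and 5 above the highest control mouse. Alad was 12.6% higher in IDA hearts (log2 fold change 0.17 ± 0.05 SE, edgeR adjusted p = 0.00702).

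Uros (chr7:133686330-133709295, minus strand, 10 exon intervals) encodes the synthase that closes the ring. Control mice ranged from 56.8 through a median of 61.1 to 64.6 CPM, and IDA mice from 59.7 through 67.1 to 73.8 CPM. With 7 IDA mice above all control mice, the difference of 9.84% was the smallest of those called (log2 fold change 0.14 ± 0.04 SE, edgeR adjusted p = 0.00704).

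Urod (chr4:116990217-116994375, minus strand, 10 exon intervals) encodes the decarboxylase that makes coproporphyrinogen, the last cytosolic product. Its levels ran from 92.3 through a median of 101 to 115 CPM in control mice. In IDA mice they ran from 114 through 136 to 142 CPM, and 9 of the 10 exceeded every control mouse. The means of 102 ± 7.28 and 132 ± 10.1 CPM (SD, n = 10 each) differed by 29.0% (log2 fold change 0.37 ± 0.05 SE, edgeR adjusted p = 1.17e-06).

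Cpox (chr16:58670208-58680389, plus strand, 7 exon intervals) encodes the oxidase that takes up coproporphyrinogen at the mitochondrion, and it was the enzyme that fell. Control mice ranged from 80.5 through a median of 94.2 to 104.2 CPM. IDA mice ranged from 61.4 through 68.5 to 104.3 CPM, so their spread was the wider one and reached the top of the control range. Below the lowest control mouse lay 6 IDA mice, between 61.4 and 69.2 CPM, whereas the other 4 lay between 84.1 and 104.3 CPM. The means were 95.1 ± 7.21 and 76.6 ± 14.9 CPM (SD, n = 10 each), and Cpox fell by 19.4% (log2 fold change -0.31 ± 0.09 SE, edgeR adjusted p = 0.00265).

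Ppox (chr1:171276992-171281186, minus strand, 13 exon intervals) encodes the next oxidase, which makes protoporphyrin. It ranged from 32.2 through a median of 38.1 to 43.9 CPM in control mice and from 41.5 through 49.8 to 56.2 CPM in IDA mice. The distributions barely overlapped, with 8 IDA mice above the highest control mouse. Ppox rose by 30.1%, from 38.0 ± 3.71 to 49.5 ± 5.69 CPM (SD, n = 10 each, log2 fold change 0.38 ± 0.07 SE, edgeR adjusted p = 4.23e-05).

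Fech (chr18:64456550-64489066, minus strand, 11 exon intervals) encodes ferrochelatase, the step that consumes iron. Its levels were 221 through a median of 245 to 260 CPM in control mice and 203 through 221 to 267 CPM in IDA mice. While 5 IDA mice lay below the lowest control mouse, another was the highest of all 20. The log2 fold change was -0.10 ± 0.05 SE (95% interval -0.20 to -0.01, edgeR p = 0.0428, adjusted p = 0.0619). Its call depended on the tool: DESeq2 gave -0.11 with an adjusted p of 0.0300, and edgeR called it in 34 of 100 fits that each left out 1 mouse of each group. The other 6 enzymes were called in all 100.

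**Figure D1:**
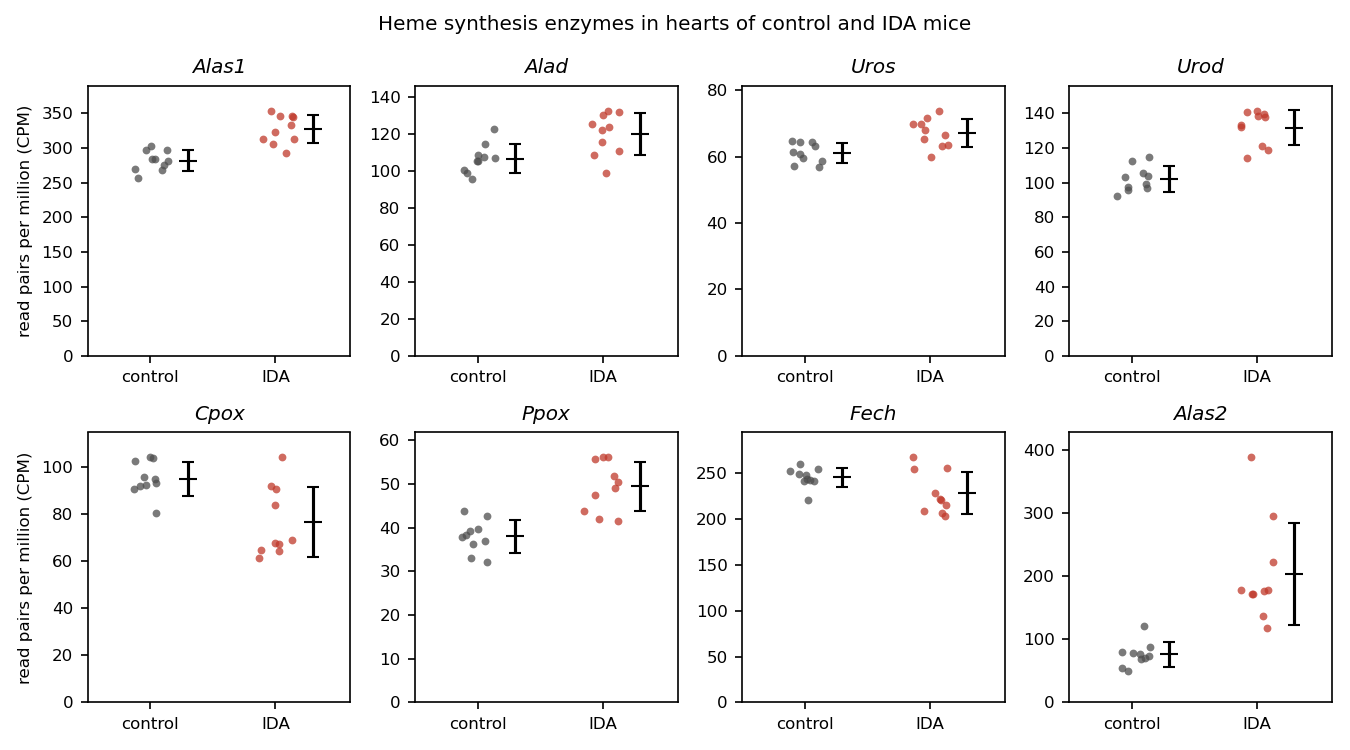
Levels (CPM, vertical axes from 0) of each heme synthesis enzyme and of the erythroid enzyme Alas2 in every control (grey) and IDA (red) mouse; horizontal marks are group means and bars 1 SD (n = 10 each). Alas1, Alad, Uros, Urod and Ppox lie higher in IDA mice, Cpox splits into 6 low mice (61.4 to 69.2 CPM) and 4 between 84.1 and 104.3 CPM, and Fech overlaps.

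No enzyme had groups that were fully apart in CPM, whereas 4.97% of all tested genes lay higher in every IDA mouse than in every control mouse and 6.28% lay lower. Read pairs per mouse were at most 422 for Ppox, the least covered enzyme, and at least 1950 for Alas1, the most covered. No exon of an enzyme overlapped another gene in the table.

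Per exonic length (CPM divided by the exonic length in kilobases, RPKM), levels differed more between enzymes than between diets. In control hearts the order was Alas1 (104 ± 5.45), Urod (85.1 ± 6.07), Fech (84.5 ± 3.67), Uros (33.7 ± 1.66), Cpox (29.9 ± 2.26), Alad (23.2 ± 1.70) and Ppox (20.9 ± 2.04 RPKM, SD, n = 10). Urod and Fech could not be ordered on this scale, with Urod the higher in 4 of 10 control mice, and Alad exceeded Ppox in 7 of 10. The highest mean, that of Alas1, was 4.99 times the lowest.

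In IDA hearts the order was Alas1 (121 ± 7.65), Urod (110 ± 8.44), Fech (78.6 ± 7.89), Uros (37.0 ± 2.39), Ppox (27.2 ± 3.13), Alad (26.1 ± 2.43) and Cpox (24.1 ± 4.68 RPKM, SD, n = 10). Urod now exceeded Fech in 10 of 10 mice, and Cpox went from place 5 to place 7. The lowest 3 did not differ beyond their spread, each being above the next in 6 of 10 mice. Exonic length in the table is not the length of the transcript present: for Alad it was 4601 bases, although the annotated coding transcripts (GENCODE M21) are 1206 to 1247 bases long. The per-length level of Alad is therefore the least certain of the 7. With the length trend of each mouse removed, 5 of the 7 kept their places in each group. On that scale Urod (93.0 ± 3.94 RPKM) exceeded Fech (83.5 ± 3.94 RPKM) in 10 of 10 control mice as well, Alad came last in control hearts and at place 5 in IDA hearts, and Cpox again went from place 5 to place 7.

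**Figure D2:**
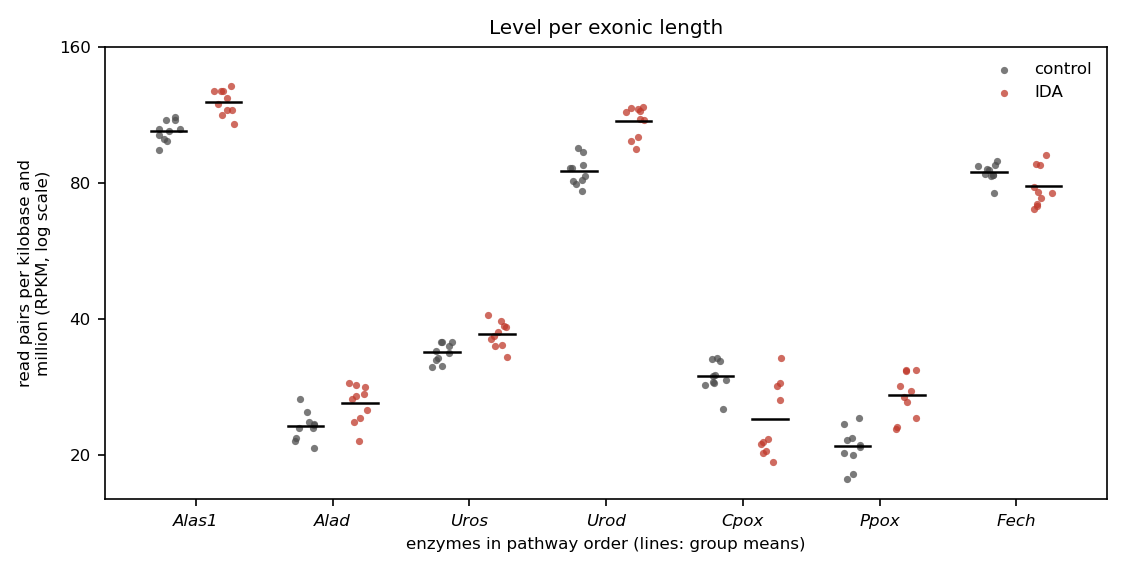
Level per exonic length (RPKM, logarithmic axis) of the 7 enzymes in pathway order, with a point for each control (grey) and IDA (red) mouse and lines at the group means. Alas1, Urod and Fech form the upper tier, at 78.6 RPKM or more on average, and Cpox and Ppox exchange places between the diets on this scale, whereas with the length trend removed Ppox holds place 6 in both groups.

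Ratios within a mouse compare enzymes without scaling to other genes, but they keep the trends on length and GC content described below. Per exonic length, Cpox over Urod, the enzyme before it, was 0.353 ± 0.043 in control mice and 0.222 ± 0.058 in IDA mice (SD, n = 10 each), with 8 IDA mice below the control range. Ppox over Cpox was 0.707 ± 0.116 and 1.18 ± 0.309, with 6 IDA mice above the control range. Fech over Alas1, the last enzyme against the first, was 0.812 ± 0.057 and 0.651 ± 0.071, and 7 IDA mice lay below the control range. Alad over Alas1 was nearly alike in both groups, at 0.222 ± 0.014 and 0.215 ± 0.014. These ratios are given as descriptions, without a test of their own or a correction for length or GC content. With both trends removed, the log2 fold changes were -0.13 for Cpox and 0.074 for Urod, and neither was called.

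Some of the enzymes also varied together from mouse to mouse. After group means were subtracted from log2 CPM, the 6 pairs among Alas1, Alad, Uros and Urod had Pearson's r from 0.65 to 0.80 over the 20 mice. With the other enzymes, Alas1 had r of 0.14 (Ppox), 0.078 (Fech) and -0.25 (Cpox). Alas1 and Urod were the closest pair (r = 0.80, Spearman's rho = 0.82, permutation p = 9e-05 and 7e-05, adjusted over the 21 pairs computed 0.00189 and 0.00147). With the 2 mice whose Alas1 lay farthest from its median left out, r was 0.79. Cpox and Ppox varied in opposite directions (r = -0.62, rho = -0.71, permutation p = 0.00681 and 0.00163, adjusted 0.0204 and 0.00861), and r was -0.70 when the 2 mice most extreme in Cpox were left out. Urod with Cpox also had a negative r (-0.55, permutation p = 0.0159, adjusted 0.0418), which was -0.051 with trends on gene length and GC content removed. Permutations were made within diet groups.

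Library numbers in the table's column names form separate runs, of 12 and 8 mice, and the study describes sequencing across 2 units without saying which mouse was on which. Within these runs, r was 0.74 and 0.96 for Alas1 with Urod and -0.48 and -0.86 for Cpox with Ppox. With trends on gene length and GC content removed, the 6 pairs among the first 4 enzymes had r from 0.53 to 0.77, and Cpox with Ppox -0.41. With the length trend alone removed, the range over the 6 pairs was 0.46 to 0.75. Fech with Urod went from 0.094 to 0.70 with both trends removed, so which enzymes varied together depended on the correction. The genes most like Alas1 across the 20 mice by the same measure were Oxa1l (r = 0.91), Ppp2r1a (0.90), Rhot2 (0.90), Bzw2 (0.90) and Bcam (0.90). Those most like Fech were BC003331 (r = 0.91), Usp15 (0.90), E430025E21Rik (0.88), Vldlr (0.88) and Dsp (0.87), given as descriptions with no test.

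**Figure D3:**
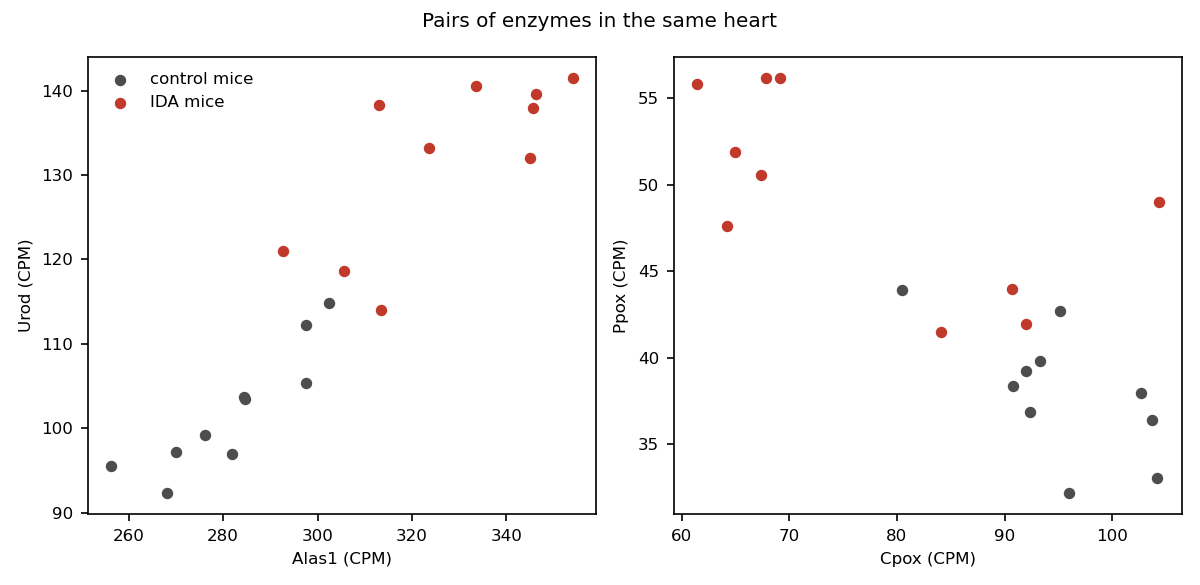
Levels (CPM) of Urod against Alas1 (left) and of Ppox against Cpox (right), with a point for each control (grey) and IDA (red) heart. Urod and Alas1 rise together in both groups (r = 0.80 with group means removed), and Ppox is lower where Cpox is higher (r = -0.62).

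Gene length and GC content moved with the diet difference across all genes, and the enzymes differ in both. The median log2 fold change of all tested genes in 10 equal bins by exonic length ran from 0.34 in the shortest (median length 881 bases) to -0.53 in the longest (7761 bases). In 10 bins by GC content it ran from -0.31 in the lowest (41.4%) to 0.28 in the highest (59.7%). Cpox (47.4%) and Fech (49.3%), the pair with negative log2 fold changes, had the lowest GC content of the 7, and the 5 enzymes that rose lay between 50.5% (Uros) and 57.7% (Alad). Urod, with 1199 bases the shortest, had a log2 fold change of 0.37, and the 500 genes nearest to it in length had a median of 0.30. For Uros the corresponding values were 0.14 and 0.20, for Ppox 0.38 and 0.20, for Alas1 0.22 and 0.071, and for Cpox -0.31 and 0.013.

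**Figure D4:**
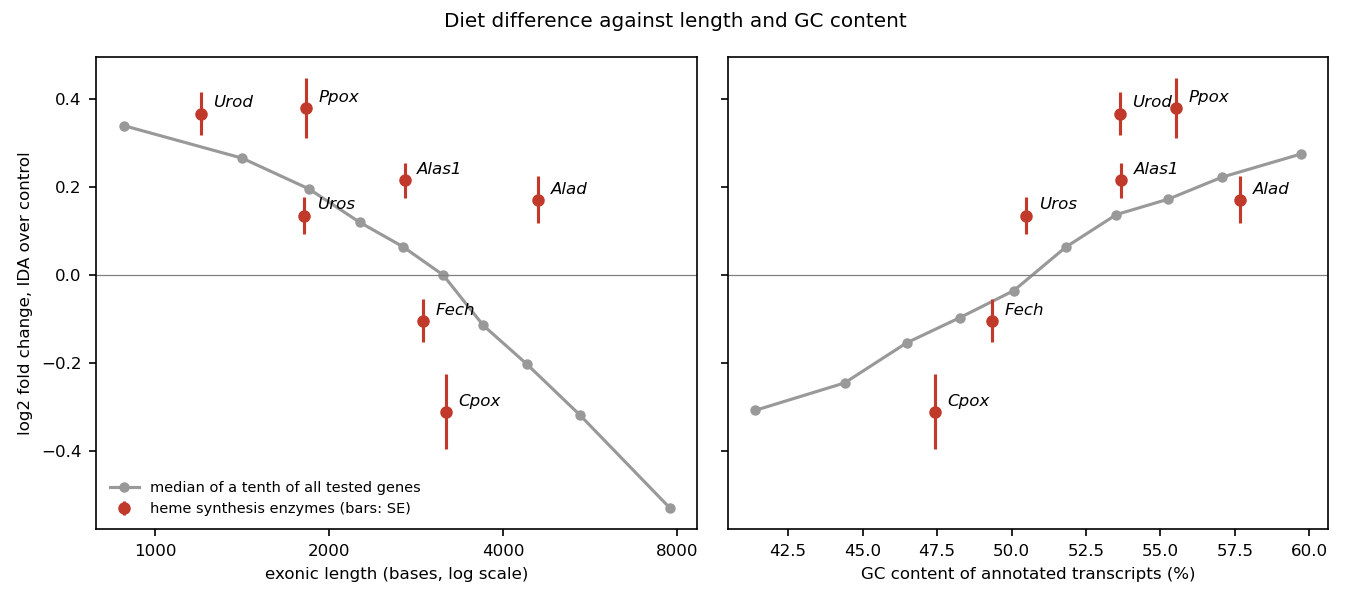
Log2 fold change (IDA over control) of the 7 enzymes (red, bars 1 SE) against exonic length (left, logarithmic axis) and GC content of annotated transcripts (right), with the medians of all tested genes in 10 equal bins in grey. The grey medians fall from 0.34 to -0.53 with length and rise from -0.31 to 0.28 with GC content, and among the 5 enzymes that rose only Uros (0.14) lies below the grey length line.

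When the length trend of each mouse was removed, 4 enzymes were called higher and 1 lower, against 31.5% and 23.5% of all genes. Uros lost its difference (log2 fold change -0.015, edgeR adjusted p = 0.759) and Urod kept 0.11 (adjusted p = 0.0231), while Alas1 stayed at 0.22 (adjusted p = 0.000173) and Alad rose to 0.43. The value of Alad turned on which length was used: with the median length of its annotated coding transcripts in place of the table's exonic length, it was 0.024 (adjusted p = 0.692). That second length correction called 3 enzymes higher (Alas1, Urod and Ppox) and 1 lower (Cpox), against 35.5% and 25.6% of all genes.

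With trends on both exonic length and GC content removed, Alas1, Alad and Ppox were called higher and none lower, against 28.1% and 19.4% of all genes. Their log2 fold changes were 0.14 (edgeR adjusted p = 0.00884), 0.18 (0.0160) and 0.14 (0.0461). Cpox was then at -0.13 (adjusted p = 0.112) and Urod at 0.074 (0.121). Alas1 and Ppox were thus called higher under each of the 3 corrections, and these remove a trend whether it is technical or biological.

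**Figure D5:**
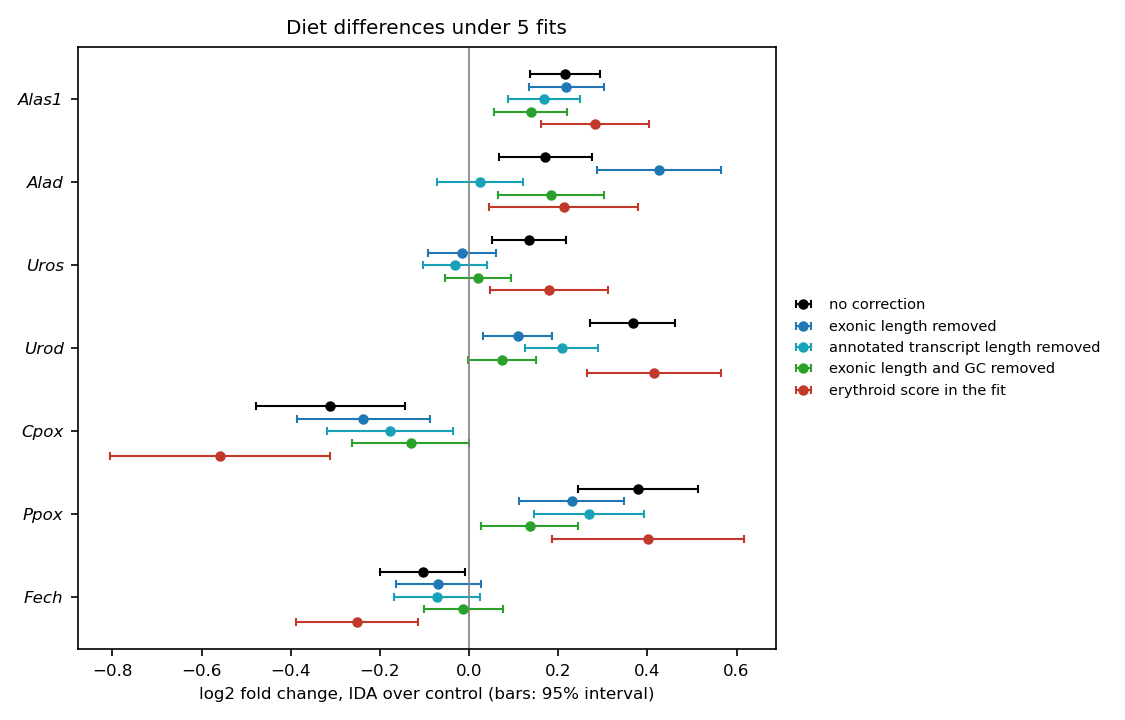
Log2 fold change (IDA over control, bars 95% intervals) of each enzyme without correction and under 3 corrections for length or GC content, and with an erythroid marker score in the fit. Alas1 and Ppox stay above 0 in all 5 fits, Uros drops to -0.015 with exonic length removed, Alad ranges from 0.024 to 0.43, and Fech is lowest with the erythroid score in the fit (-0.25). Erythroid scores do not overlap between the diets, so values of that fit are extrapolated.

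Most tested markers of red cell precursors, which make heme with the same enzymes after the first step, were higher in IDA hearts. Alas2, the erythroid first enzyme, ranged from 49.3 through a median of 74.6 to 120 CPM in control mice and from 117 through 177 to 388.5 CPM in IDA mice. A lone control mouse exceeded the lowest IDA mouse, and Alas2 was 2.68-fold higher (log2 fold change 1.42 ± 0.18 SE, edgeR adjusted p = 9.1e-07). Per exonic length Alas2 stood at 0.368 ± 0.092 of Alas1 in control mice and 0.853 ± 0.351 in IDA mice (SD, n = 10 each). Slc4a1, the red cell anion exchanger, went from 2.74 to 45.2 CPM.

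Of 14 erythroid markers in the table, 4 passed the filter on low counts, and 3 of these were higher and 1 was lower. The globin genes Hba-a1, Hba-a2 and Hbb-b2 were listed at 0 in all 20 libraries, and the summed CPM of the 14 ranged from 107 to 168 in control mice and from 175 to 674 in IDA mice. The mean log2 CPM of the 4 tested markers, used as the erythroid score, was 3.47 ± 0.29 in control mice and 5.28 ± 1.04 in IDA mice (SD, n = 10 each, two-sided permutation test, p = 2e-05, adjusted over 17 such tests 0.00017). All 6 platelet markers were also higher, with summed CPM of 40.4 to 111 in control mice and 86.1 to 357 in IDA mice. Of 9 tested leukocyte markers, 6 were higher, 2 were lower and 1 was not called. Of 8 cardiomyocyte markers, 3 were higher and 1 was lower, against 35.0% and 32.5% of all tested genes. With exonic length removed, 2 were higher and 4 lower, against 31.5% and 23.5% of all tested genes. Without correction, the mean log2 CPM of the 8 was 8.65 ± 0.11 in control mice and 8.70 ± 0.11 in IDA mice (permutation p = 0.33, adjusted 0.425). For endothelial, fibroblast, smooth muscle and adipocyte markers the same test gave p from 0.274 to 0.811.

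With the erythroid score and diet in the same fit, the score was called for 0.191% of all tested genes and for none of the enzymes (edgeR adjusted p from 0.868 to 0.962), a count that says little at that share. The slopes were 0.134 ± 0.054 for Cpox and 0.080 ± 0.029 for Fech (log2 per unit of score, SE), and between -0.037 and -0.012 for the other 5. Diet then called the same 5 enzymes higher and both Cpox (log2 fold change -0.56) and Fech (-0.25, edgeR adjusted p = 0.00417) lower, against 27.8% and 27.3% of all genes. Scores did not overlap between diets (2.80 to 3.78 in control mice, 4.02 to 6.74 in IDA mice). Diet differences at an equal score therefore rest on extrapolation. The 4 IDA mice with the highest scores, between 6.13 and 6.74, were also those with the highest Fech, between 228 and 267 CPM, an observation made after the values were seen. Library totals also differed between groups, from 6797180 to 8960688 read pairs in control mice and from 6682177 to 7833916 in IDA mice (permutation p = 0.00937, adjusted 0.0251). With library size in the fit, Alas1, Urod and Ppox were the 3 enzymes called higher and Fech alone was called lower (-0.16, edgeR adjusted p = 0.0172). Of all 13590 tested genes, that fit called 3959 higher and 3961 lower. The part of length, GC content, library size and platelet or leukocyte RNA in these differences was not tested beyond these fits.

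Within the runs of library numbers the direction held for all 7 enzymes. In the first run (5 control and 7 IDA mice) the log2 fold changes were 0.26 for Alas1, 0.41 for Urod, 0.37 for Ppox and -0.33 for Cpox. In the second run (5 control and 3 IDA mice) they were 0.15, 0.30, 0.33 and -0.28, and only Urod passed the test there. Of all 13590 tested genes, 2635 were called higher and 3271 lower in that run.

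Genes that supply the pathway or carry its products were taken as a list of 25 transporters, mitochondrial carriers, proteases and substrate enzymes. Of these, 14 were higher, 6 lower and 5 not called, with a median log2 fold change of 0.15, and with exonic length removed 10 were higher and 4 lower. Of all tested genes 35.0% were higher and 32.5% lower, and with exonic length removed 31.5% and 23.5%. Tspo, the outer-membrane protein that binds porphyrins, rose from 46.8 ± 5.32 to 67.9 ± 6.60 CPM (log2 fold change 0.54, edgeR adjusted p = 5.38e-07). The 500 genes nearest to Tspo in length had a median of 0.34, and its value was 0.22 with exonic length removed and 0.093 with length and GC content removed (edgeR adjusted p = 0.079, no longer called). Slc48a1 (a heme transporter of lysosomes and endosomes) rose by 0.34 on the log2 scale. In Slc48a1 and in Abcb6, a porphyrin transporter at 0.32, every IDA mouse lay above every control mouse. This held for 3 of the 25 genes and for 4.97% of all tested genes.

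The heme exporter Mfsd7b (Flvcr1) fell by 0.38 on the log2 scale, and its relative Mfsd7c (Flvcr2) by 0.66. Mfsd7b was not called under any of the 3 corrections (-0.19 with exonic length removed, edgeR adjusted p = 0.227, and -0.046 with length and GC content removed), whereas Mfsd7c was called lower under each. The 5 that were not called were Slc25a37, Clpx, Sucla2, Ogdh and Abcg2. Slc25a37 (mitoferrin-1, the iron importer of erythroid mitochondria) had a log2 fold change of 0.36 (adjusted p = 0.0522). It followed the erythroid score (edgeR adjusted p = 7.67e-06), and with the score in the fit its value was -0.57, again by extrapolation between diets.

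Among 16 regulators of Alas1 or of heme and iron sensing, 8 were lower, 1 was higher (Hdac3, a corepressor subunit, 0.20 on the log2 scale) and 7 were not called. As shares, 50.0% were lower and 6.25% higher, against 32.5% and 35.0% of all tested genes. With exonic length removed, 31.25% were lower and 18.75% higher, against 23.5% and 31.5% of all tested genes. With length and GC content removed, 4 of the 16 were lower and 3 higher, against 19.4% and 28.1% of all genes. The largest decreases were in Clock, from 168 ± 29.4 to 84.1 ± 17.2 CPM (log2 fold change -0.996, edgeR adjusted p = 3.44e-07), and in Bach1, the heme-sensing repressor, from 105 ± 17.5 to 54.8 ± 12.5 CPM (-0.93, adjusted p = 6.44e-07). Nr1d2 (REV-ERBβ, a heme-binding repressor) was at -0.85, Ncor1 at -0.73, Ireb2 (iron regulatory protein 2) at -0.70 and Ppargc1b at -0.39. Clock, Bach1 and Ireb2 were lower in every IDA mouse than in every control mouse, as were 6.28% of all tested genes. These are long genes: Clock has 7478 and Ncor1 11144 exonic bases, and with length removed Clock was at -0.51, Bach1 at -0.57 and Ncor1 at -0.075 (adjusted p = 0.155). With transcript length removed instead, Ncor1 was at -0.60 (edgeR adjusted p = 7.7e-07). Ireb2 was at -0.34 with exonic length removed, and with length and GC content removed it was at -0.093 and no longer called (edgeR adjusted p = 0.0611). Of the activators of Alas1, Nrf1 had a log2 fold change of 0.10 (edgeR adjusted p = 0.152), 0.42 with exonic length removed (adjusted p = 3.46e-05) and 0.015 with transcript length removed. Ppargc1a fell by 0.37 on the log2 scale, and its value was 0.037 with exonic length removed. Hmox1, which degrades heme, was at 21.7 ± 3.27 and 24.8 ± 9.44 CPM (adjusted p = 0.251).

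Downstream of FECH, the enzymes that turn heme into heme a differed in direction in the uncorrected fit. Cox10, the farnesyltransferase, was higher (log2 fold change 0.17, edgeR adjusted p = 0.00152), and Cox15, which acts next, was lower (-0.24, adjusted p = 1.23e-05). Hccs, which attaches heme to cytochrome c, was lower too (-0.22, adjusted p = 0.000997). With length and GC content removed, Cox10 and Cox15 were both called higher, so they no longer differed in direction. Cox15 was then at 0.099 (edgeR adjusted p = 0.0357), and Hccs was at -0.0032 and not called.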

How the data were processed

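Poly(A) RNA of 20 hearts was sequenced with 75-base paired reads. The authors aligned the reads to mm10 (STAR), removed PCR duplicates (samtools) and, without strand, assigned read pairs to exons of named genes (featureCounts 1.4.5-p1). The deposited values are raw counts per gene and mouse, with exonic lengths. Removing duplicates can lower the counts of abundant genes. The study left out 1 mouse of each group without naming it, so all 20 were kept, and all 100 such pairs were left out in turn. The labels number the mice without saying that a number pairs them.

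A gene was kept if 10 or more mice had 1 CPM or more (13590 of 23420). Tests used edgeR 4.0.16 (TMM, quasi-likelihood) and DESeq2 1.42.0 in R 4.3.3, with Benjamini-Hochberg adjustment over all tested genes. Log2 CPM used a prior count of 2. Length and GC trends were loess curves per mouse (span 0.5, degree 1) entered as offsets. Transcript GC was found for 99.2% and transcript length for 96.1% of tested genes. Permutation tests used 100000 resamples and were two-sided. Alternatives were other normalizations, no filter, both packages, covariates, a replicate block and mice left out. The transcript length correction and the runs of library numbers were added after the data were seen. Named genes are the enzymes, Alas2, and in each list up to 6 called genes by absolute log2 fold change, with those that account for a count of 5 or fewer. Abcb6, Nrf1, Ppargc1a and Hmox1 were added after their values were seen. Enzymes, lists and tests were chosen with earlier results of these data known, and 1 step of the pathway and some genes this rule selects are not reported here. Counts for this comparison (13590 genes) were also simulated without a length trend. Of genes changed 1.25-fold, 1.5-fold and 2-fold, 41.8%, 83.6% and 95.5% were called in the right direction, and 6 unchanged genes were called. With the length trend of these data added, the uncorrected fit called 6069 genes given no other change. The fit with length correction called 9 such genes. The main calls come from the uncorrected fit. P-values of the group comparisons set the difference between the groups against the spread between mice of a group, for these 20 mice. Depth was 6682177 to 8960688 read pairs per mouse.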

Additional observations from a re-analysis of the deposited data

Results flagged for a closer look

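Fech in control mice had a low sample. Control replicate 6 was at 220.6 CPM, and the nearest control mouse was at 240.8 CPM, a gap of 0.515 of the group's range, larger than Dixon's 95% limit for 10 values. Among the 16 groups examined (each enzyme and Alas2 in each diet), chance flags about 1 in 20. Without this mouse, Fech had a log2 fold change of -0.12 and passed the test (edgeR adjusted p = 0.0330).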

How the results depend on the processing

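Of the 544 values recomputed under alternatives, 484 kept their direction and their side of the threshold, or for counts stayed within 1.5 times. The exceptions follow, and where no value shows a cause, the cause was not tested.

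With exonic length removed, Uros reversed to -0.015 on the log2 scale, regulators went to 3 higher and 5 lower, and 1 of the heme a and c genes was lower. With transcript length removed, Uros reversed to -0.032, Alad was at 0.024, 3 enzymes were higher, regulators had 4 higher, and heme a and c genes had 2 higher and 1 lower. With length and GC content removed, Uros was at 0.020, Urod at 0.074 and Cpox at -0.13, so 3 enzymes were higher and 0 lower. That fit left 2 accessory genes lower, 3 regulators higher and 4 lower, and 2 heme a and c genes higher and 0 lower. With library size in the fit, Alad (0.072), Uros (0.080) and Cpox (-0.23) were not called and Fech was (-0.16), leaving 3 enzymes higher, 2 regulators higher and 0 heme a and c genes higher. Fech was called with DESeq2 (-0.11), RLE factors (-0.11) and the erythroid score (-0.25), each making 2 enzymes lower. These fits called 4480, 4487 and 3716 of all 13590 tested genes lower.

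Leaving out mice gave Fech values from -0.15 to -0.079, 1 to 2 enzymes lower and 1 to 2 regulators higher (2 without control replicate 5). Fech was called without control replicate 6 or 8 or IDA replicate 2, 7 or 9. In the second run of library numbers, Alas1 (0.15), Alad (0.16), Uros (0.17), Cpox (-0.28) and Ppox (0.33) were not called. This left 1 enzyme higher and 0 lower, 9 accessory genes higher, and 0 regulators and 0 heme a and c genes higher, with 8 mice. Of all 13590 tested genes, 2635 were higher and 3271 lower in that run. In the first run Uros (0.13) was not called and 2 regulators were higher, as they were with the run as a covariate. Those fits called 4108 and 4782 of all 13590 tested genes higher.

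The labels do not say that replicate numbers pair the mice, and the values cannot exclude it. Deviations of same-numbered mice correlated from -0.28 to 0.26, above 0.1 in 3 of 10 pairs, and 3 control mice matched their own number best. With the replicate number as a block, 5 enzymes were higher and 1 lower, against 4584 and 4328 of all 13590 tested genes. Alas1 was at 0.21 in that fit. Uros, with 423 to 558 read pairs per mouse, and Ppox had the least depth behind their values.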
